A study of Arabidopsis thaliana with 4 samples.

Results

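The Arabidopsis autophagy genes described here are the genes whose only symbol in the array's annotation is ATG followed by a number, with or without a letter. The rule found 8 genes, each read by 1 of the 22746 probe sets left after the controls were set aside. They are ATG3 and 7 members of the ATG8 family, ATG8B to ATG8H. A search of RefSeq for symbols of this form, or synonyms that spell out autophagy, returned 29 genes. Of these, 11 had a probe set with a single gene symbol here. ATG genes named in other ways may be missing from the 29. The other 3 of these 11 (ATG8A, ATG8I and ATG101) carry a different symbol in the annotation and are given as a comparison. The remaining 18, among them ATG2, ATG5, ATG6, ATG7, ATG9, ATG10, ATG13 and the ATG18 genes, were not analysed here. Single genes were taken by symbol and not by signal, but the set was chosen with earlier results of these data known.

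Autophagy is the route by which a cell wraps part of its cytoplasm in a double membrane and delivers it to the vacuole for breakdown. ATG8 proteins are small ubiquitin-like proteins that are attached to a lipid, phosphatidylethanolamine, on the growing membrane, where they help it expand and bind the receptors that choose the cargo. ATG3 is the E2-like enzyme that makes this attachment. Plants have many ATG8 genes where yeast has a single one, and in Arabidopsis several of them are known to be induced at the transcript level when carbon or nitrogen runs short.

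Total RNA of whole seedlings at developmental stage 1.02 was hybridised to 4 Affymetrix ATH1 arrays. One group was a Col-0 line in which, per the labels, CDB1 was completely knocked out (2 arrays), and the other was wild type Col-0 (2 arrays). Both were raised at 20 °C, 80% humidity and 16 h of light per day, on the same medium, and the labels give no treatment. The study is titled after a binding protein of Polycomb, a repressive chromatin system. The labels name neither the allele nor the number of lines behind the knockout group. No annotation used here ties the name CDB1 to a probe set, so the loss of its transcript was not checked. The labels do not say whether a group's arrays stem from separate plant cultures. The spread behind each p-value is therefore that between arrays and may be technical. The test used (limma) pools it in part over probe sets, so p-values and intervals do not rest on a gene's own arrays alone.

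Values are the authors' MAS5 signals in arbitrary units, with trimmed means of about 100 on every array. Array medians were 47.9 on both knockout arrays and 48.3 and 50.6 on the wild type arrays. Of 8 leaf and 6 root markers, 2 and 3 had a named probe set, and all 5 were above the brightness floor. The photosynthesis gene LHCB4.1 read 2064 and 1808 on the knockout arrays, against 1518 and 1568 on the wild type arrays, and RCA read 2430 and 2685 on the knockout arrays, against 2672 and 2292 on the wild type arrays. The root gene PYK10 read 2544.5 and 2859 on the knockout arrays, against 2967 and 2599 on the wild type arrays. The root hair genes read 55.9 and 55.9 (EXPA7) and 58.5 and 60.9 (EXPA18) on the knockout arrays, against 28.7 and 50.3 (EXPA7) and 51 and 49.5 (EXPA18) on the wild type arrays. Both knockout arrays were above both wild type arrays for LHCB4.1, EXPA7 and EXPA18 (log2 differences 0.32, 0.40 and 0.19). The groups overlapped for RCA and PYK10 (0.05 and -0.04), and none of the 5 passed the limma test. Over all tested probe sets, groups did not overlap for 31.9%. The part of organ proportions in the results was not tested. Group membership was barely visible in the similarity of whole arrays. Pearson's r over the 15924 tested probe sets, a description and not a test, was 0.982 between the knockout arrays, 0.977 between the wild type arrays and 0.975 to 0.984 between groups, the highest being knockout replicate 2 with wild type replicate 1.

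The transcript of ATG3, the conjugating enzyme (AT5G61500), was steady over the arrays. It had a signal of 204.3 and 195.3 on the knockout arrays, against 204.6 and 217.6 on the wild type arrays. Both knockout values lay below both wild type values, but knockout replicate 1 did so by a hair. The difference between knockout and wild type was -0.07 on the log2(signal + 16) scale (95% confidence interval -0.37 to 0.23), and it did not pass the test. The constant of 16 damps the noise of dim probe sets and makes fold changes of dim genes look smaller.

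Among the ATG8 genes, ATG8F (AT4G16520) had a strong signal on every array. It read 1031 and 891.8 on the knockout arrays, against 847.5 and 984.3 on the wild type arrays. The groups overlapped: the higher array of each group was above both lower arrays. Group means were 961.6 ± 98.7 in the knockout and 915.9 ± 96.7 in the wild type (SD, n = 2 each), a log2 difference of 0.07 (SE 0.140).

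ATG8C (AT1G62040) read 301.2 and 243.7 on the knockout arrays, against 260.8 and 277.6 on the wild type arrays. Both wild type values lay between the knockout values. Its log2 difference of 0.01 was the smallest of the 8, with a confidence interval of -0.32 to 0.34.

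ATG8E (AT2G45170) showed the largest difference between groups, and a single array carried it. It read 334.6 and 198.4 on the knockout arrays, against 188 and 208.9 on the wild type arrays. Knockout replicate 1 was 1.69 times knockout replicate 2 in signal, while knockout replicate 2 lay between the wild type arrays. Group means were 266.5 ± 96.3 in the knockout and 198.5 ± 14.8 in the wild type (SD, n = 2 each). The log2 difference was 0.36 (SE 0.205, 95% confidence interval -0.10 to 0.81), with an adjusted p of 0.998 in limma over all tested probe sets. Without knockout replicate 1 it was 0.0014.

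ATG8H (AT3G06420) belongs, with ATG8I, to the branch of the family whose proteins end at the glycine that joins the lipid, so that no tail needs to be cut off first. ATG8H had the next largest difference. It read 145.5 and 114.6 on the knockout arrays, against 110.2 and 116.3 on the wild type arrays. Again knockout replicate 1 was high and knockout replicate 2 lay within the wild type range. Its log2 difference was 0.17 (95% confidence interval -0.17 to 0.51), and without knockout replicate 1 it was 0.015.

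ATG8D (AT2G05630) and ATG8G (AT3G60640) were the genes whose wild type arrays differed most. ATG8D read 209.6 and 159.3 on the knockout arrays, against 148.5 and 211.3 on the wild type arrays. ATG8G read 104.7 and 91.5 on the knockout arrays, against 86.4 and 127.5 on the wild type arrays. In each case the knockout values fell within the wild type range, and the log2 differences between groups were 0.04 for ATG8D (SE 0.185) and -0.09 for ATG8G (SE 0.177).

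ATG8B (AT4G04620) read 133 and 96.1 on the knockout arrays, against 99.1 and 121.6 on the wild type arrays. Here the wild type values lay within the knockout range, and the log2 difference was 0.04 (SE 0.173). ATG8 genes resemble each other in sequence, and binding of one family member's transcript to another's probes was not tested. All 8 probe sets carry the plain ending that the manufacturer gives to designs for a single gene.

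**Figure D1:**
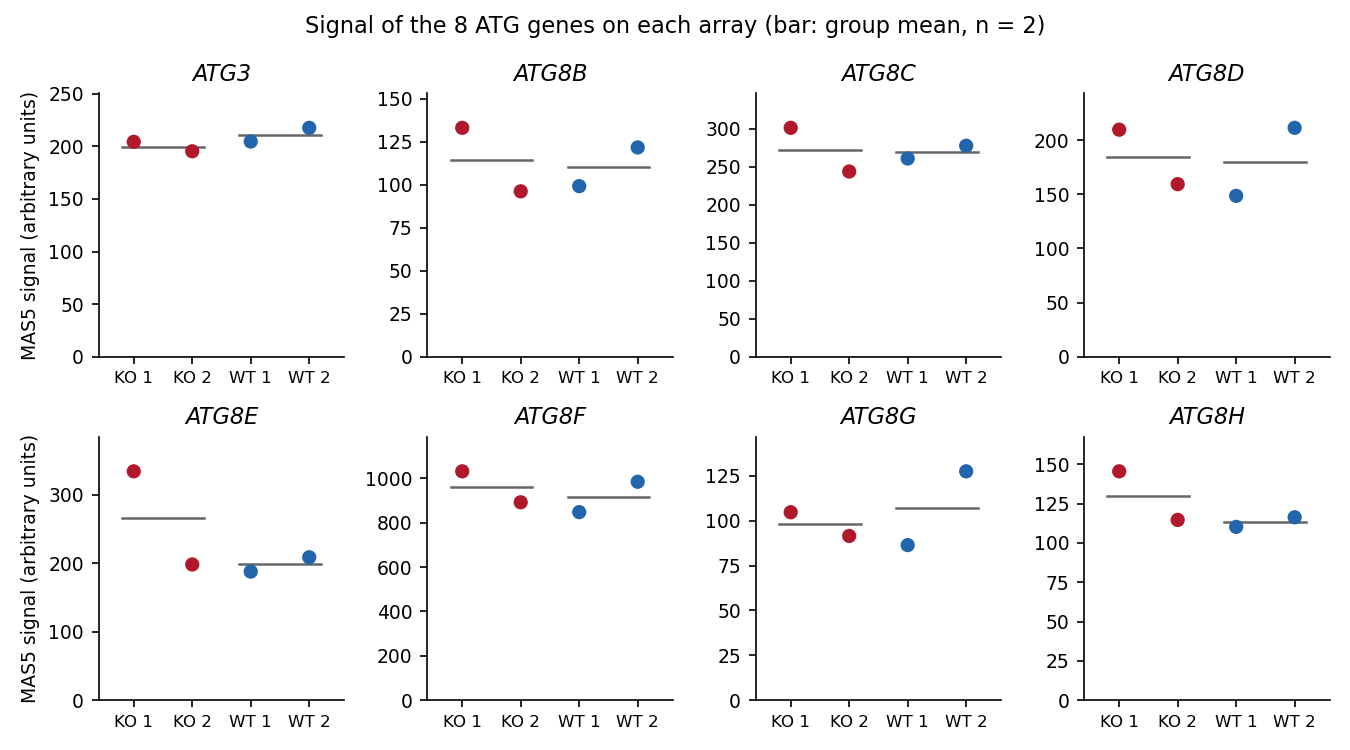
MAS5 signal (arbitrary units, each axis from 0) of the 8 ATG genes on the knockout (KO, red) and wild type (WT, blue) arrays. Points are arrays and grey bars group means, n = 2 per group. In the ATG8 genes knockout replicate 1 sits above knockout replicate 2 and wild type replicate 2 above wild type replicate 1. ATG3 shows the same order with smaller gaps.

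In the comparison of knockout with wild type, none of the 8 ATG genes passed the test. All 8 were above the brightness floor (a mean signal of 19.5) and were tested. At a limma adjusted p of 0.05 the count was 0 of 8, against 51 of 15924 probe sets in all (0.32%). At an unadjusted p of 0.05 it was also 0 of 8, against 5.24% of all tested probe sets. The adjusted p of each of the 8 was 0.998. Groups did not overlap for 1 of the 8 (ATG3), against 31.9% of all tested probe sets. In bulk tissue, fewer cells of a type and less RNA per cell cannot be told apart in any of these values.

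The confidence intervals of the 8 genes ran from -0.48 at the lowest (ATG8G) to 0.81 at the highest (ATG8E) on the log2 scale. With 2 arrays per group, differences within a gene's own interval were not excluded. An exact permutation test of 2 arrays against 2 could not go below p = 0.333. The median difference over the 8 genes was 0.04, against -0.01 over all tested probe sets. Of the 8, 6 were above 0, against 46% of all tested probe sets. That count rested on single arrays: it was 2 without wild type replicate 1 and 2 without knockout replicate 1.

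**Figure D2:**
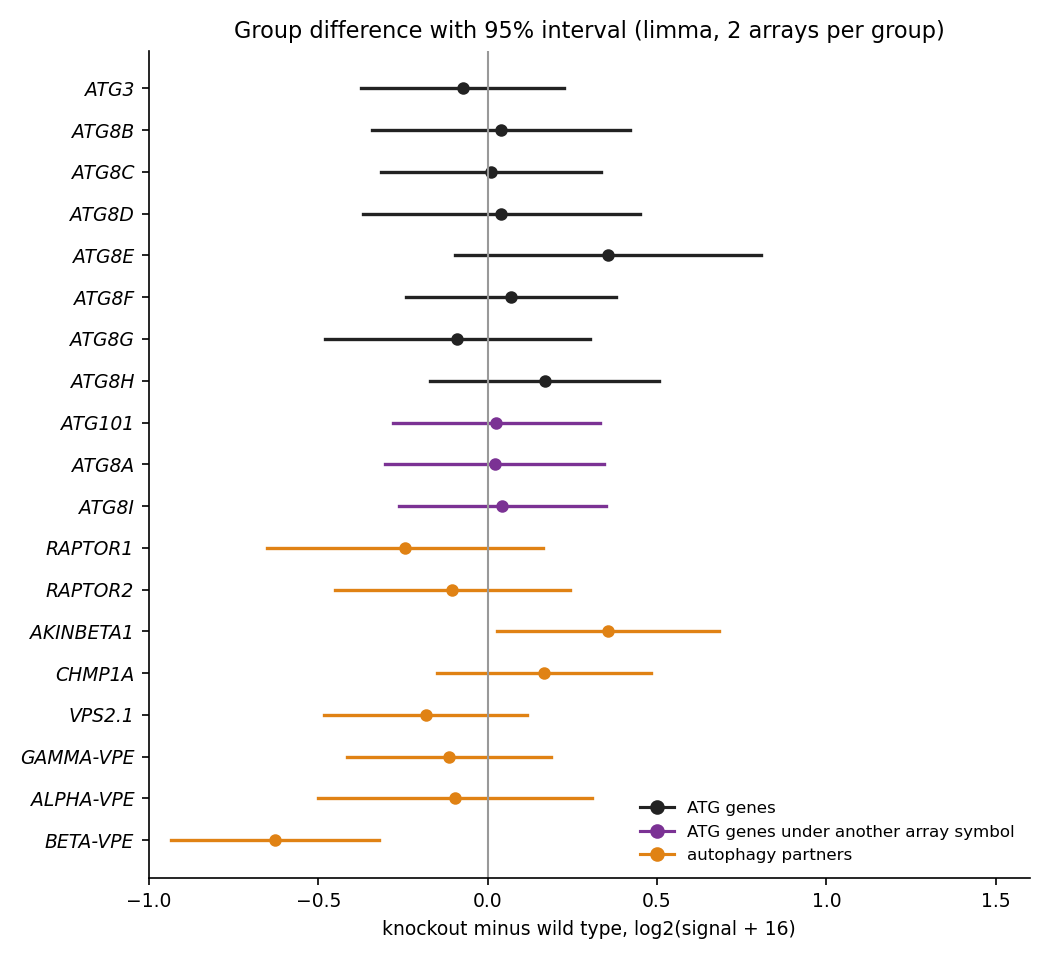
Knockout minus wild type difference in log2(signal + 16), with 95% confidence intervals from limma (2 arrays per group), for the 8 ATG genes (black), 3 ATG genes listed under another symbol (purple) and 8 tested autophagy partners (orange). All ATG intervals include 0. Those of AKINBETA1 and BETA-VPE do not, but neither passed the adjusted threshold.

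Most of the ATG genes differed more between replicates than between groups, and the replicates stood in one order. Knockout replicate 1 was above knockout replicate 2 for 8 of 8 genes, and wild type replicate 2 was above wild type replicate 1 for 8 of 8. Each order alone held for 49.9% and 53.3% of all tested probe sets. Both together held for 31.9% of them, for 27.8% of the 6795 that were at least as bright as the dimmest of the 8 genes, and for 34.5% of those with a single gene symbol. The count of 8 of 8 was the same after quantile normalization and after median centring, where the share of all tested probe sets with both orders was 29.7% and 27.6%. The 8 genes come from the same 4 arrays and the same RNA, so they are not 8 separate observations of this order.

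Within the knockout the gap between replicates had a median of 0.30 over the 8 genes and ranged from 0.06 (ATG3) to 0.71 (ATG8E) on the log2(signal + 16) scale. Over all tested probe sets the median of the same signed difference, replicate 1 minus replicate 2, was 0. A signed median of 0 does not mean that gaps were small, and their usual size regardless of sign was not computed. Within the wild type the gap, replicate 2 minus replicate 1, had a median of 0.18. It ranged from 0.07 (ATG8H) to 0.49 (ATG8G), against a signed median of 0.02 over all tested probe sets. The difference between groups was smaller than the gap within the knockout for 7 of 8 genes, all but ATG3. It was smaller than the gap within the wild type for 6 of 8, all but ATG8E and ATG8H. The share of all tested probe sets that meet either condition was not computed. Means of 2 arrays vary less than single arrays, so a smaller difference between groups is common without any group effect.

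The size of the gaps was not shared evenly. ATG8E stood high within the knockout, where its gap was at the 99.6th percentile of all tested probe sets, but at the 68.4th within the wild type. ATG8G was the other way round, at the 76.9th percentile within the knockout and the 95.4th within the wild type. ATG8D was high in both, at the 93.5th and 94.8th percentiles, as was ATG8B, at the 95.5th and 82.2nd. ATG3 stood near the middle in both, at the 60.5th and 60.1st percentiles. These percentiles are of signed differences, place single genes among all tested probe sets and are not tests.

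**Figure D3:**
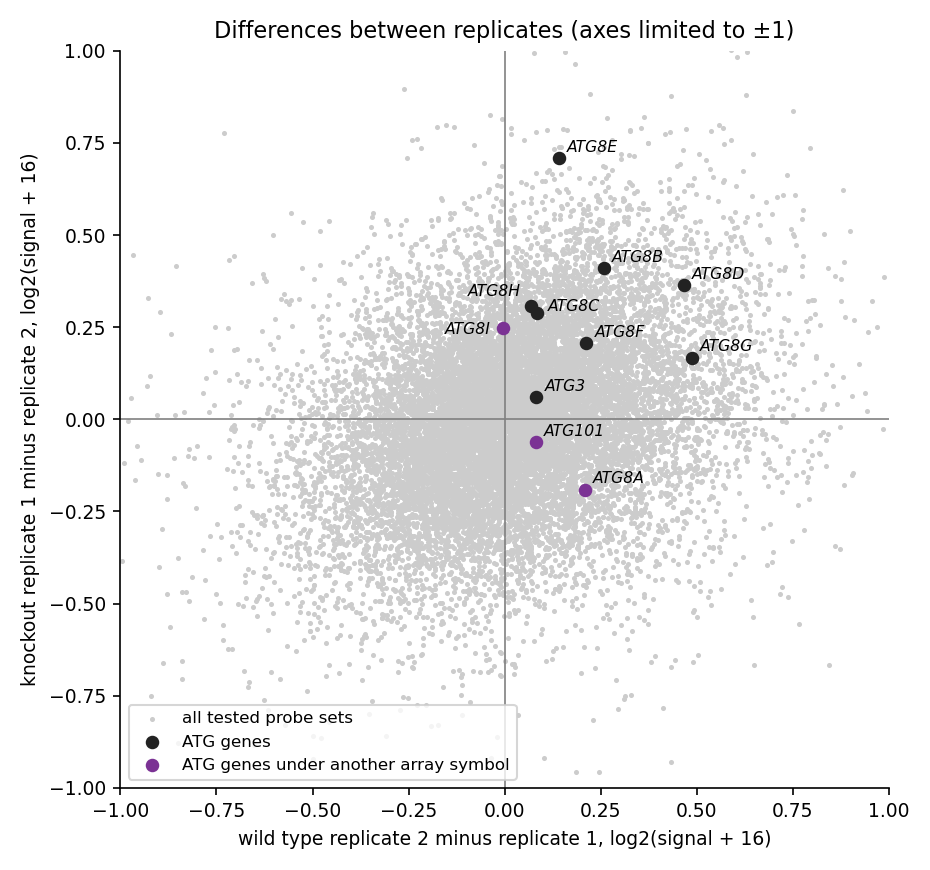
Difference between replicates within the knockout (vertical, replicate 1 minus 2) and within the wild type (horizontal, replicate 2 minus 1), in log2(signal + 16). Grey points are the tested probe sets, of which those beyond 1 on either axis are not drawn. The 8 ATG genes (black) lie in the upper right of the plot, above 0 on both axes, and ATG8A, ATG8I and ATG101 (purple) do not.

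Knockout replicate 1 and wild type replicate 2 were the 2 highest arrays for all 7 ATG8 genes of the set. Knockout replicate 1 was the highest array for 5 of the 8 genes (ATG8B, ATG8C, ATG8E, ATG8F and ATG8H) and wild type replicate 2 for the other 3 (ATG3, ATG8D and ATG8G). The lowest array was wild type replicate 1 for 5 genes and knockout replicate 2 for 3. Averaged over the 8 genes, log2 signal relative to each gene's own mean was 0.19 on knockout replicate 1 and -0.12 on knockout replicate 2, against -0.14 on wild type replicate 1 and 0.08 on wild type replicate 2. Over all tested probe sets the same averages lay between -0.0073 and 0.018.

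Signs of RNA quality moved with this order. The ratio of 3' to 5' signal of the actin control, which grows as RNA breaks down or labelling stops early, was 2.49 and 1.90 on the knockout arrays, against 1.83 and 2.51 on the wild type arrays. For GAPDH it was 1.28 and 1.12 on the knockout arrays, against 1.13 and 1.34 on the wild type arrays. Ubiquitin kept the order only within the wild type, with 1.57 and 1.67 on the knockout arrays, against 1.66 and 1.90 on the wild type arrays. The 25S ribosomal RNA control also read higher on those arrays within each group, at 2196 and 992.3 on the knockout arrays, against 556.1 and 841.1 on the wild type arrays. An older set of control probe sets kept the order in both groups for GAPDH, but only within the knockout for actin and only within the wild type for ubiquitin. The part of RNA quality in the order of the ATG genes was not tested.

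**Figure D4:**
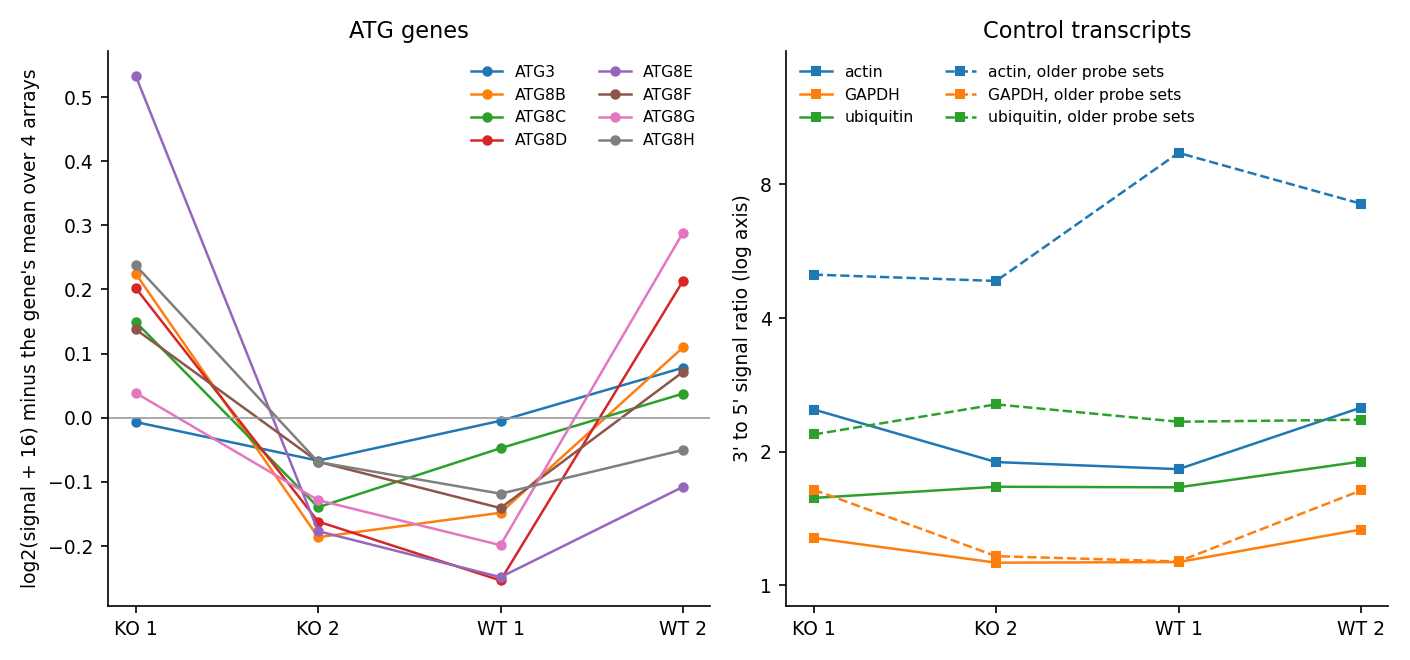
Left, log2(signal + 16) of the 8 ATG genes on each array relative to the gene's own mean over 4 arrays. Right, 3' to 5' signal ratios of control transcripts (log axis, dashed lines for the older control probe sets). Lines join the values of 1 gene or control. Knockout replicate 1 and wild type replicate 2 are the high arrays for most ATG genes and for the newer actin and GAPDH ratios.

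Both orders together held for 0 of the 3 ATG genes that the annotation lists under another symbol, against 31.9% of all tested probe sets. Knockout replicate 1 was the higher for 1 of the 3 and wild type replicate 2 for 2 of the 3. ATG8A (AT4G21980, listed as APG8A) read 224.2 and 258.2 on the knockout arrays, against 219.2 and 255.9 on the wild type arrays, so replicate 2 was the higher array in both groups. ATG8I (AT3G15580, listed as APG8H) read 632.5 and 530 on the knockout arrays, against 562.3 and 560.5 on the wild type arrays, and its wild type arrays hardly differed. Both orders therefore held for 7 of the 9 ATG8 genes with a named probe set. ATG101 (AT5G66930), a subunit of the kinase complex that starts autophagy, read 141.2 and 148 on the knockout arrays, against 137.3 and 146.2 on the wild type arrays. The log2 differences between groups were 0.02 for ATG8A, 0.04 for ATG8I and 0.03 for ATG101. In limma 0 of the 3 passed an adjusted p of 0.05 (background 0.32%). With 1 array left out all 3 changed sign, with ranges of -0.083 to 0.13 for ATG8A, -0.081 to 0.17 for ATG8I and -0.015 to 0.067 for ATG101.

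Other genes that act with the ATG proteins were given by 4 lists holding 64 names. A probe set with a single gene symbol was found for 9, and 8 were bright enough to test. In limma 0 of these 8 passed an adjusted p of 0.05 (background 0.32%) and 2 passed an unadjusted p of 0.05 (background 5.24%). The median log2 difference was -0.11, with 2 genes above and 6 below 0. Groups overlapped for 4 of the 8 and were apart for the rest, against 31.9% apart over all tested probe sets. None of the 17 names on the list of selective autophagy receptors and adaptors, which link cargo to ATG8, was matched.

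In the signalling list, AKINBETA1, a subunit of the SnRK1 kinase that promotes autophagy when energy is low, read 198.2 and 246.1 on the knockout arrays, against 167.3 and 171 on the wild type arrays. Both knockout arrays were above both wild type arrays, and knockout replicate 2, on which the ATG8B to ATG8H signals were lower than on replicate 1, was the higher. Its log2 difference was 0.36 (SE 0.149, limma adjusted p = 0.884). RAPTOR1 and RAPTOR2 are partners of TOR, the kinase that holds autophagy back in fed cells. RAPTOR1 read 100.6 and 143.1 on the knockout arrays, against 166.6 and 126.4 on the wild type arrays, with overlapping groups. Its highest array was wild type replicate 1 and its lowest knockout replicate 1, the reverse of ATG8E, ATG8F and ATG8H. The share of all tested probe sets with that reversed pattern was not computed. RAPTOR2 read 39.6 and 34.7 on the knockout arrays, against 40.9 and 41.3 on the wild type arrays, with its replicates in the order of the ATG genes. That order held for 1 of the 8 tested partners, against 31.9% of all tested probe sets. The log2 differences were -0.24 for RAPTOR1 and -0.10 for RAPTOR2. That of RAPTOR1 rested on single arrays: it was -0.019 without knockout replicate 1, -0.47 without knockout replicate 2, -0.064 without wild type replicate 1 and -0.42 without wild type replicate 2.

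The ESCRT-III proteins, which close and cut membranes on the way to the vacuole, were represented by VPS46.2 (also known as CHMP1A) and VPS2.1. VPS46.2 had a log2 difference of 0.17 (SE 0.143) and VPS2.1 one of -0.18 (SE 0.135).

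The vacuolar processing enzymes are proteases that mature other vacuolar proteins. BETA-VPE, best known for processing seed storage proteins, read 164.8 and 182.8 on the knockout arrays, against 265.8 and 288 on the wild type arrays. The groups were clearly apart, with gaps within each group far smaller than the gap between them. The log2 difference was -0.63 (SE 0.139, 95% confidence interval -0.93 to -0.32), with a limma p of 0.000928 before adjustment and an adjusted p of 0.143, so it did not pass. With a crossed pairing of the replicates, chosen after seeing the data, its limma adjusted p was 0.014, and over the other alternatives it was 0.133 to 0.850. GAMMA-VPE, the main form in vegetative tissue, and ALPHA-VPE had log2 differences of -0.11 and -0.10 with overlapping groups. DELTA-VPE was below the brightness floor, at 14 and 13.7 on the knockout arrays, against 8.6 and 22.1 on the wild type arrays.

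Of the 6 senescence markers 1 had a named probe set. WRKY53, a regulator of leaf senescence, read 44.5 and 36.8 on the knockout arrays, against 37.8 and 53.6 on the wild type arrays. It showed the same order of replicates as the ATG genes, an order that held for 31.9% of all tested probe sets. Its log2 difference between groups was -0.11 (limma adjusted p = 0.998).

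The genes whose values over the 4 arrays lay nearest to the mean pattern of the 8 ATG genes were AT4G30620, AT3G08910, AT5G20030, AT4G09340 and AT1G21500. Their root mean square distance from that pattern was 0.0073 to 0.016 on the log2 scale, over 4 arrays and 8726 candidate genes with a single symbol. AT4G30620 read 86.2 and 65.8 on the knockout arrays, against 65.1 and 77.6 on the wild type arrays. Of the 8 genes themselves, ATG8B and ATG8F were closest to their mean pattern, and 66 of the candidates lay nearer to it than either. The number of candidates nearer than the gene was 245 for ATG8C, 534 for ATG8H, 825 for ATG8D, 2050 for ATG3, 2338 for ATG8G and 5501 for ATG8E, whose knockout replicate 1 stood out.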

How the data were processed

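The authors deposited 1 intensity value per probe set and array, made with MAS5 per the submitters' processing notes. The sources used here give neither its version nor its settings. Signals were used as deposited, without the 64 control probe sets. Probe sets with a mean signal below the 30th percentile (19.5) were left out, and 15924 were tested on log2(signal + 16) with limma 3.58.1 in R 4.3.3 (lmFit, eBayes with an intensity trend, two-sided, Benjamini-Hochberg over all tested probe sets). The procedure was run on simulated data with noise drawn separately for each probe set and array. Such data cannot show how it handles differences between arrays that many probe sets share. Arrays give no read depth. Their number limits the precision.

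Of 22746 probe sets, 13513 had 1 gene symbol in the platform annotation, which can be old, 503 had several and 8730 were not listed. Members were the single symbols of the form ATG and a number, the brightest probe set per gene (each gene had 1). Partners and synonyms were matched through RefSeq (TAIR10.1). One RefSeq gene with the symbol ATG2 that encodes an ERBB-3 binding protein was not counted. The rule for named genes was every member, up to 6 partners with the largest difference, and the 5 genes nearest in pattern. RAPTOR2, ALPHA-VPE, DELTA-VPE and the markers were named beyond it after their values were seen. The members and lists were chosen with earlier results of these data known.

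Both groups use replicate numbers 1 and 2, and no label ties a number to a batch or day. The correlation of replicate differences between the groups across tested probe sets was -0.301. Whether arrays with equal numbers were grown or handled together was not tested.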

Additional observations from a re-analysis of the deposited data

How the results depend on the processing

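The count of 0 ATG genes past the threshold held under all 14 alternatives (normalization, pseudocount, filter, trend, replicate blocks, single arrays left out, probe sets averaged). The lowest adjusted p of any of them was 0.294, for ATG8E. The median group difference ranged from -0.12 to 0.20 and the number of ATG genes above 0 from 2 to 7 with 1 array left out. With 1 array left out the log2 difference changed sign for ATG8B (-0.17 to 0.24), ATG8C (-0.13 to 0.15), ATG8D (-0.19 to 0.27), ATG8F (-0.037 to 0.18) and ATG8G (-0.33 to 0.15). Under quantile normalization ATG8C was at -0.0035. The medians of replicate 2 minus replicate 1 ranged from -0.32 to -0.24 in the knockout and from 0.13 to 0.21 in the wild type over 6 alternatives. Those that changed only the filter could not move these medians. Averaging probe sets could alter no value of the 8 genes, each read by 1, so it adds nothing to the 14.

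Over all probe sets the count of calls was 51, and 20 to 87 with 1 array left out. With no filter, where 22746 were tested, it was 0. With the replicate number as a block it was 89, and with a crossed pairing chosen after seeing the data (wild type 1 with knockout 2) it was 195. The partner genes past the threshold were 0 throughout except for 1, BETA-VPE, under that crossed pairing. With 1 array left out the partners GAMMA-VPE (-0.25 to 0.018) and ALPHA-VPE (-0.25 to 0.061) changed sign. The replicate block changed no ATG or partner call. The cause of these shifts was not tested.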
